A study of Mus musculus with 230 samples.

Results

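Kinesins, cytoplasmic dynein and dynactin move cargo along the microtubules of axons, and their genes were examined in sensory neurons of the mouse dorsal root ganglion after sciatic nerve injury. The genes were taken by name alone: kinesin heavy chains (Kif followed by a digit), kinesin light chains (Klc1 to Klc4), dynein heavy, intermediate and light intermediate chains (Dync), dynein light chains (Dynl) and dynactin subunits (Dctn), without pseudogenes. This gave 66 of the 53278 genes in the table, of which 40 were Kif, 4 Klc, 7 Dync, 9 Dynl and 6 Dctn names. One of the Kif names, Kif16bos, belongs to an opposite-strand transcript and not to a motor, and Kif1bp encodes a kinesin-binding protein. Chromosome positions are those of the deposited table, on GRCm38.

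The mice were crosses of the strains C57BL/6 and CAST/Ei, and neurons labelled injured or intact were picked by hand from dissociated L4 and L5 ganglia. The labels do not say whether intact neurons came from other animals. Of 230 samples, 136 are RNA samples with 87 distinct names, and the 94 methylation samples were not analysed here. Low-input RNA libraries form 6 groups of 3: intact and injured at 1, 8 and 12 months of age (some labels write the last as 1 year). Single neurons, whose cytoplasm went to SMART-seq2, form 4 groups, with 18 intact and 21 injured cells at 1 month and 8 intact and 22 injured cells at 1 year. The labels name no animal and give no time after injury, so p-values measure the spread between these libraries, which may be partly technical.

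Kinesins mostly carry cargo toward the axon tip. Kinesin-1 pairs a KIF5 heavy chain with light chains that bind cargo, kinesin-2 joins KIF3 motors to the adaptor KIFAP3, and kinesin-3 motors of the KIF1 and KIF13 types carry synaptic and dense core vesicle precursors and other membranes. Dynein is the main motor toward the cell body and carries injury signals back from a damaged axon, and dynactin is the complex that lets it run far and bind cargo. Another group of kinesins works in dividing cells, on the spindle and chromosomes. Kif22 encodes one of these, a chromokinesin that binds DNA and pushes chromosome arms outward.

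Kif22 was the 1 gene of the 66 that passed the test for an injury difference averaged over ages, and the sequence in front of its start is shown for that reason. It lies on chromosome 7 from 127027729 to 127042471 on the minus strand. The 250 bases before its RefSeq start (GRCm38.p6, chr7:127042421-127042670, minus strand, written 5′ to 3′) read as follows.
Kif22 promoter: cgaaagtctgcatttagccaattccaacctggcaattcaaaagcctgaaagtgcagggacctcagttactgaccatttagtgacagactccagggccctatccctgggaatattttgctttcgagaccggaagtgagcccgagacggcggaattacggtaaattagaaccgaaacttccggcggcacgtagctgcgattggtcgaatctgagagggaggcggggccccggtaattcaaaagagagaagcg
A pair of motifs was searched on both strands from 250 bases before to 50 bases after the start: TGANTCA, the letters of an AP-1 site, and TGACGT, the core of a cyclic AMP response element. Neither was found for Kif22, so nothing is in capitals. RefSeq promoters matched 50 of the 66 genes by symbol, in 57 entries, and TGANTCA stood in 0 of the 57. Of all 32841 promoters of that length, 7.81% held it. TGACGT stood in 7 of the 57 entries, those of Dctn3, Kif15, Kif17, Kif18a, Kif5c, Klc1 and Klc4, and in 7.51% of all promoters. These are matches of letters, not sites.

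The low-input libraries held 7531967 to 19443627 counts on genes, and a single feature (CT010467.1) took 29.4% to 93.8% of them. That share was 40.4% to 93.8% in intact and 29.4% to 59.7% in injured libraries. The 66 genes took 3356 to 167790 counts per library. Levels are CPM (counts scaled to a common library size, with TMM factors), and log2 changes are edgeR estimates with their standard errors. The intact 12-month replicates 2 and 3 stood apart, with 93.8% and 80.9% of counts on the dominant feature and 770328 and 1789183 counts left. Of those remaining counts replicate 2 had 40.5% on mitochondrial genes, against 1.19% to 3.55% in the other 17 libraries, and its rank correlation with replicate 3 over the tested genes was 0.66. In the averaged comparison, values without each are given for the transport genes whose call turned on either. Markers of neurons summed to 5826 to 9891 CPM in every library, and those of immune cells to 0 to 9.79. Markers of satellite glia, the cells that wrap each neuron, summed to 47.8 to 758.6 CPM in intact and 116.8 to 2059 in injured libraries, and all 10 had counts in both. In bulk libraries a change in the number of cells of a type and a change in RNA per cell cannot be told apart.

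In intact neurons 20 of the 66 genes had a mean of at least 100 CPM, 12 lay between 10 and 100, 13 between 1 and 10, and 21 below 1. The first class held the dynein chains Dync1h1, Dync1i1, Dync1i2, Dync1li1, Dynll1, Dynll2, Dynlrb1 and Dynlt3, the dynactin genes Dctn1, Dctn2, Dctn3 and Dctn4, and the kinesin genes Kif5a, Kif5b, Kif5c, Klc1, Kif1a, Kif1b, Kif3a and Kif21a. Scaled by exon length, the 5 most abundant were Dctn3 with 206.5 CPM per kb, Klc1 with 157.4, Dynlrb1 with 144.7, Dctn2 with 54.1 and Kif5a with 53.7. Of the 16 genes that did not pass the filter on low counts, Kif12 and Kif2b had no count in any low-input library. The others were Dynlrb2, Kif14, Kif15, Kif16bos, Kif18a, Kif18b, Kif19a, Kif23, Kif27, Kif28, Kif2c, Kif4, Kif7 and Klc3, each with at most 63 counts over the 18 libraries. Several of these are motors of the spindle or the cilium.

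Some genes had close relatives that divided the work unevenly. Within a library, Kif21a made up 97.3% to 100% of the length-scaled level of Kif21a and Kif21b together. Klc1, the light chain typical of neurons, made up 68.3% to 92.1% of the level of Klc1, Klc2 and Klc4 in intact and 87.4% to 91.4% in injured libraries. Kif3a held 59.5% to 75.6% of the kinesin-2 motor level in intact and 53.98% to 70.3% in injured libraries. Dync1i1, the neuron-enriched intermediate chain of dynein, held 65.4% to 84.1% of the intermediate chain level in intact and 56.9% to 77.9% in injured libraries. For each of these shares the ranges of the conditions overlapped.

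The averaged injury comparison asked which transport genes differed between injured and intact neurons over the 3 ages. Kif22 was higher in injured neurons, and no other gene of the 50 that could be tested was called in either direction. Among all 14212 genes tested with edgeR, 6.18% were called (5.11% higher and 1.07% lower), against 1 of 50 here. At an unadjusted p below 0.05 stood 8 of the 50, beside 20.3% of all genes. The median log2 change of the 50 was 0.02, with values from -0.81 to 2.96, and that of all genes was 0.03. In data simulated for this comparison on 13700 genes, changes were placed only on genes with a mean of at least 10 CPM. The fit recovered 50% of 2-fold and 94% of 4-fold changes among them. Recovery for genes of lower level, such as Kif22, was not measured. Smaller changes were not simulated.

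**Figure D1:**
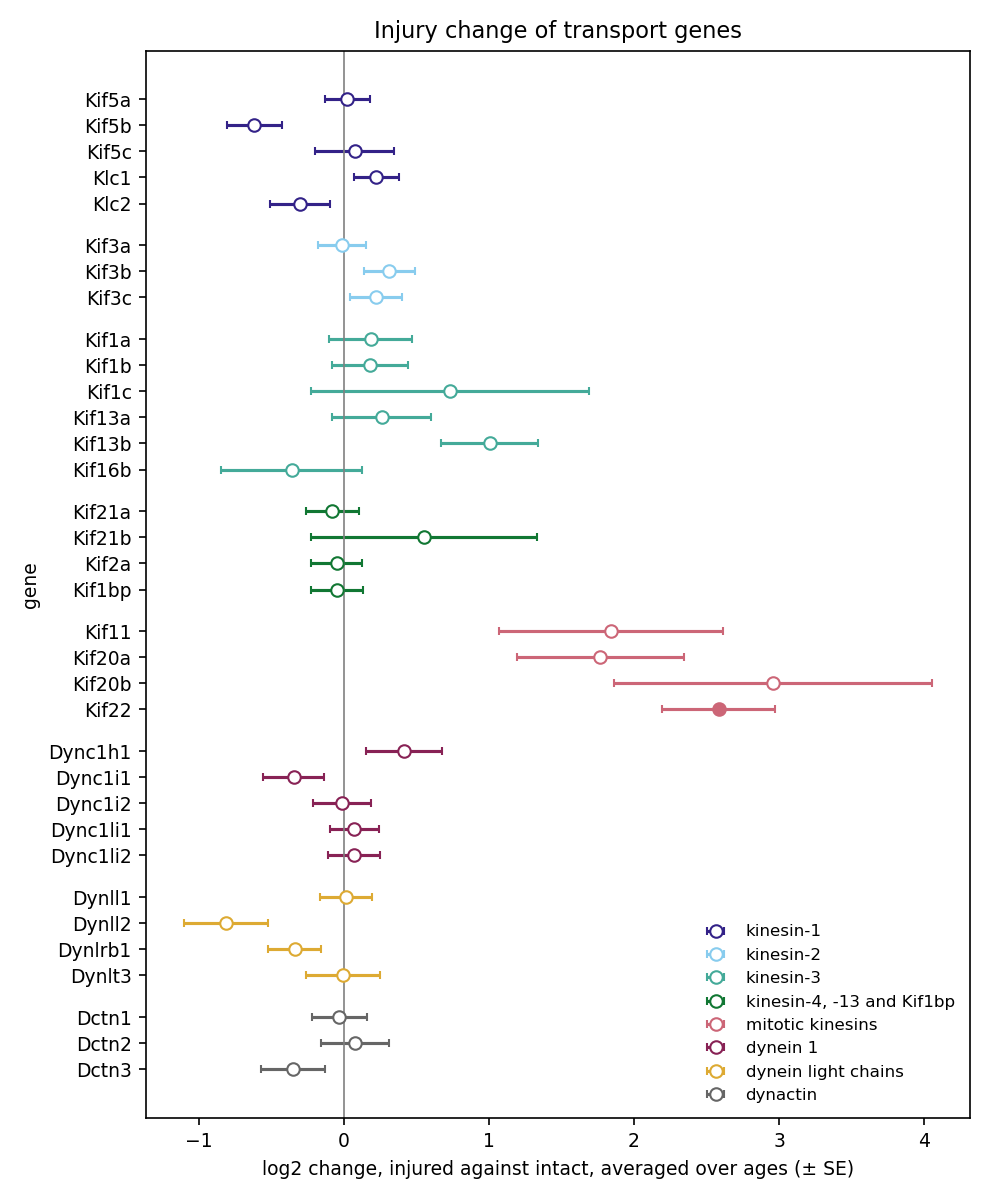
Log2 change (± SE) of 34 transport genes between injured and intact low-input neurons, averaged over 3 ages, in order of family; the filled point is the gene with an edgeR adjusted p below 0.05. The 4 mitotic kinesins lie to the right of 0 and only Kif22 (2.58) passed the test, while all other genes shown lie between -0.81 and 1.01.

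Kif22 read 0.45, 2.12 and 1.67 CPM in the intact and 6.41, 4.29 and 3.004 CPM in the injured libraries at 1 month. At 8 months the intact libraries read 0.21, 0.86 and 0.33 CPM and the injured ones 4.53, 8.47 and 6.69 CPM. At 12 months the intact libraries read 2.14, 3.61 and 1.09 CPM and the injured ones 6.28, 13.9 and 7.94 CPM. All 3 injured libraries lay above all 3 intact ones at each age. Among all genes tested 1.83% showed that order at every age, and Kif22 was the 1 gene of the 50 that did.

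The averaged log2 change of Kif22 was 2.58 ± 0.39 (SE, edgeR adjusted p = 0.0006461), from a mean of 1.39 ± 1.11 CPM (SD, n = 9) in intact to 6.84 ± 3.19 (n = 9) in injured libraries. These levels rest on 143 and 923 counts. The change was 2.74 with the 12-month libraries left out (edgeR adjusted p = 0.01876), 2.66 without intact 12-month replicate 2 and 2.46 without replicate 3. With that dominant share as a covariate in the model it was 2.45 and no longer called (edgeR adjusted p = 0.2532), the share being higher in intact libraries. Kif22 has a pseudogene copy, Kif22-ps, which had 0 counts in the low-input libraries, and overlaps Gm31749 on the other strand, which had a mean of 1.67 counts per library.

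**Figure D2:**
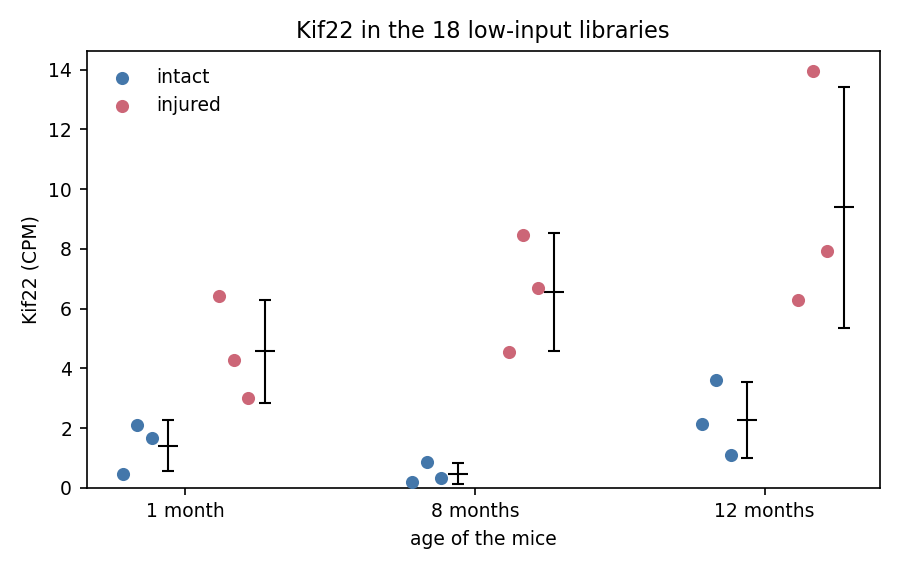
Kif22 level (CPM) in each of the 18 low-input libraries by age, with the mean ± SD (n = 3) in black beside each group. Intact libraries lie between 0.21 and 3.61 CPM and injured ones between 3.004 and 13.9 CPM, with no overlap within an age.

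Of the 11 mitotic kinesins, 4 had enough counts to be tested and 1, Kif22, was called. Kif20a, a motor of the midzone of the dividing cell, had means of 0.41 and 1.40 CPM in intact and injured libraries, a log2 change of 1.77 ± 0.57 (edgeR adjusted p = 0.07829). It was called with DESeq2 (1.71, adjusted p = 0.02707). edgeR called it without intact 8-month replicate 3 (2.28, adjusted p = 0.0197) and without intact 12-month replicate 1 (3.34, adjusted p = 0.04024). With the replicate block it was not called (2.05, edgeR adjusted p = 0.1784). Kif20a overlaps Cdc23 on the other strand, which had a mean of 191.6 counts per library. Since counting was unstranded, reads of Kif20a may include those of that gene, and overlap of their exons was not examined. Kif11, the motor that pushes spindle poles apart, had means of 0.27 and 0.51 CPM and was not called (edgeR adjusted p = 0.1869). Kif20b had means of 0.91 and 0.57 CPM, so that its mean was lower in injured libraries although its fitted log2 change was 2.96 ± 1.10 (edgeR adjusted p = 0.1383). All 3 intact libraries at 1 and at 12 months had no count of Kif20b, and 2 of the 8-month intact libraries had 2.81 and 5.42 CPM.

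Dividing cells were scarce by their own markers. The 10 marker genes of proliferating cells together summed to 0 to 2.48 CPM without and 0.62 to 1.68 CPM with injury, and none had enough counts to be tested. Markers of other cell types were also compared between the conditions. Satellite glia markers summed to 97.3 to 627.8 CPM in intact against 1312 to 2059 CPM in injured libraries at 1 month, without overlap. Their ranges overlapped at 8 months (97.0 to 533.1 against 369.2 to 714.8 CPM) and at 12 months (47.8 to 758.6 against 116.8 to 444.0 CPM). Fibroblast and endothelial markers summed to 3.52 to 8.32 CPM in intact against 32.3 to 63.5 CPM in injured libraries at 1 month and 1.19 to 11.8 against 20.8 to 54.6 CPM at 8 months, apart at both ages. They overlapped at 12 months (0 to 88.5 against 28.2 to 46.9 CPM). Immune markers were apart in the same way at 1 month (0.27 to 1.5 against 2.42 to 8.08 CPM) and 8 months (0 to 1.23 against 4.44 to 9.79 CPM), and overlapped at 12 months (0 to 7.22 against 1.17 to 2.92 CPM). The part of these cells in the Kif22 difference was not tested.

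None of the 6 tested kinesin-1 genes was called in the averaged comparison. Kif5b, the KIF5 heavy chain present in all tissues, read 278.4, 173.4 and 267.5 CPM in intact and 118.7, 122.2 and 174.2 CPM in the injured ones at 1 month. At 8 months it read 163.7, 410.3 and 276.3 CPM against 204.3, 141.1 and 152.4 CPM, and at 12 months 200.2, 220.3 and 192.5 CPM against 207.3, 125.4 and 170.2 CPM. The conditions overlapped at every age.

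The averaged log2 change of Kif5b was -0.62 ± 0.19 (edgeR adjusted p = 0.06206). It passed the threshold with DESeq2 (-0.64, adjusted p = 0.01337), with limma-voom and quality weights (-0.64, adjusted p = 0.03318), and without intact 8-month replicate 1 (-0.71, edgeR adjusted p = 0.01969). It was -0.29 with the dominant share as a covariate (edgeR adjusted p = 0.7931), and not called either with the replicate block (-0.60, edgeR adjusted p = 0.2073) or with the 12-month libraries left out (-0.79, edgeR adjusted p = 0.1436). As a share of the length-scaled level of Kif5a, Kif5b and Kif5c together, Kif5b held 16.04% to 41.6% (median 27.9%) in intact and 13.8% to 22.7% (median 16.3%) in injured libraries. The neuron-specific heavy chains differed by less, with log2 changes of 0.03 ± 0.15 for Kif5a and 0.08 ± 0.27 for Kif5c. Among the light chains the changes were 0.22 ± 0.16 for Klc1 and -0.30 ± 0.21 for Klc2, neither of them called.

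The kinesin-2 genes gave no call among 4 tested, with log2 changes of -0.01 ± 0.17 for Kif3a, 0.31 ± 0.18 for Kif3b and 0.22 ± 0.18 for Kif3c. None of the 6 tested kinesin-3 genes was called in the averaged comparison. Kif1a and Kif1b, the main carriers of synaptic vesicle precursors, had log2 changes of 0.18 ± 0.28 and 0.18 ± 0.26, with intact and injured means of 474.4 and 522.2 CPM and of 486.8 and 550.6 CPM. Both values turned on the intact 12-month libraries: Kif1a had 0.48 without replicate 2 and 0.02 without replicate 3, and Kif1b 0.48 and 0.04, none of them called. Kif13b, which carries membrane proteins and phosphoinositide vesicles, had 1.01 ± 0.33 (edgeR adjusted p = 0.08414), and 0.06 with the 12-month libraries left out. Without intact 12-month replicate 2 it had 1.22 and was called (edgeR adjusted p = 0.01299), without replicate 3 it had 0.86 (adjusted p = 0.1717), and with the dominant share as a covariate 2.37 (adjusted p = 0.1579). Its low values at 12 months are described below with the ages. Kif1c (0.73 ± 0.96), Kif13a (0.26 ± 0.34) and Kif16b (-0.36 ± 0.48), an endosome motor, had wide errors at 1.10, 2.62 and 11.1 CPM in intact libraries.

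Kif21a, a motor that restrains microtubule growth, had a log2 change of -0.08 ± 0.18 at 325.7 CPM in intact libraries. Its relative Kif21b had 0.55 ± 0.78 at 5.66 CPM. Kif2a, which takes microtubule ends apart, had -0.05 ± 0.17, and Kif1bp -0.05 ± 0.18. Kif2a overlaps Dimt1, and its reads may include those of that gene. None of the 6 tested motors of the cilium and flagellum was called, and their log2 changes lay between -0.66 and 0.00.

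Of the 5 cytoplasmic dynein 1 chains none was called. Dync1h1, the heavy chain that holds the motor, had a mean of 579.6 ± 308.8 CPM (SD, n = 9) without and 739.8 ± 106.7 CPM (n = 9) with injury, a log2 change of 0.41 ± 0.26. Without intact 12-month replicate 2 it was 0.71 and called (edgeR adjusted p = 0.02885), and without replicate 3 it was 0.28 (adjusted p = 0.495). The intermediate chains, which bind dynactin, gave -0.34 ± 0.21 for Dync1i1 and -0.01 ± 0.20 for Dync1i2, and both light intermediate chains gave 0.07 (SE 0.17 for Dync1li1 and 0.18 for Dync1li2).

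Among 8 tested dynein light chains none was called. Dynll1 and Dynll2 encode the LC8 chains, hubs that also bind many partners outside dynein. Dynll1 had a log2 change of 0.01 ± 0.18. Dynll2 read 115.8, 58.4 and 79.4 CPM in intact and 67.5, 66.3 and 49.7 CPM in injured libraries at 1 month, and 55.1, 75.03 and 68 CPM against 50.1, 70.6 and 73.8 CPM at 8 months. At 12 months the intact libraries read 66.6, 350.4 and 53.9 CPM and the injured ones 44.5, 38.7 and 36.4 CPM. The conditions overlapped at 1 and 8 months and were apart at 12 months, where the highest value is that of the intact library with 93.8% of its counts on the dominant feature. The averaged change of Dynll2 was -0.81 ± 0.29 (edgeR adjusted p = 0.1125), and it was called without intact 12-month replicate 3 (-0.95, edgeR adjusted p = 0.03852). Without replicate 2, which holds the value of 350.4 CPM, it was -0.36 (edgeR adjusted p = 0.1396).

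Dynlrb1, a roadblock chain, had a log2 change of -0.34 ± 0.18, and Dynlt3, a Tctex chain, -0.00 ± 0.26. The copies Dynlt1a, Dynlt1b, Dynlt1c and Dynlt1f are nearly identical, and featureCounts dropped reads that fit several places, so their levels are uncertain. None of the 6 dynactin genes was called. Dctn1, the p150Glued arm that grips microtubules and dynein, had -0.03 ± 0.19, Dctn2 0.08 ± 0.23 and Dctn3 -0.35 ± 0.22. Dctn3 was called without intact 12-month replicate 2 (-0.48, edgeR adjusted p = 0.02301), and had -0.27 without replicate 3 (adjusted p = 0.5524). In the averaged comparison as a whole, 4 of 51 tested transport genes were called without replicate 2 (Kif22, Kif13b, Dync1h1 and Dctn3), beside 9.92% of all genes, and 2 of 52 without replicate 3 (Kif22 and Dynll2), beside 5.78%. Dctn3 overlaps Il11ra1 on the other strand, which had a mean of 76.4 counts per library, and its reads may include those of that gene. Overlap of their exons was not examined.

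Genes that adapt or regulate the motors were counted from lists outside the 66. Of 38 adaptors and regulators, 37 were tested and 1 was called in the averaged comparison, with a list median of 0.01. This was Kifap3, the adaptor subunit of kinesin-2, with a mean of 127.0 ± 32.9 CPM (SD, n = 9) without and 241.3 ± 52.2 CPM (n = 9) with injury. Intact libraries ran from 77.7 to 163.2 CPM and injured ones from 160.4 to 302.8 CPM. Its log2 change was 0.91 ± 0.17 (edgeR adjusted p = 0.003133), next to motor subunits that were not called. It was 0.63 with the 12-month libraries left out (edgeR adjusted p = 0.1124) and 0.31 with the dominant share as a covariate (edgeR adjusted p = 0.6967). Of 22 microtubule-associated proteins 0 were called and 0 had an unadjusted p below 0.05 in edgeR, with a median log2 change of 0.05. The nerve injury list had 10 of 10 genes called higher, among them Sprr1a and Atf3, in the same fit. That list was chosen with earlier results of these data known, so it is no independent check of the fit.

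At single ages the injury comparisons asked whether the transport genes changed at a given age. At 1 month edgeR called 0 of the 50, beside 0.232% of all genes, and DESeq2 called 0 as well. At an unadjusted p below 0.05 stood 3 of the 50, Kif22, Kif20b and Kif5b, beside 4.5% of all genes. At 8 months 1 was called, beside 0.957% of all genes: Kif22 rose by 3.81 ± 0.70 on the log2 scale (edgeR adjusted p = 0.01675). The intact 8-month level of Kif22 rests on 14 counts. Its adjusted p went to between 0.05078 and 0.06804 without intact replicate 1 or 3 or injured replicate 2 or 3 of that age. limma-voom gave 3.804 (adjusted p = 0.2186), and with the dominant share as a covariate it was 3.69 (edgeR adjusted p = 0.193).

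At 12 months 1 of the 50 was called, beside 2.99% of all genes. This was Kif13b, at 1.71, 9.03 and 1.30 CPM in the intact libraries and at 20.3, 17.3 and 16.03 CPM in the injured ones. The groups did not overlap, as for 10 of the 50 genes at that age (9 higher and 1 lower). Among all genes 19.2% were higher and 6.68% lower without overlap. The log2 change of Kif13b was 2.90 ± 0.67 (edgeR adjusted p = 0.02973), and the intact level rests on 31 counts. It was 3.53 without intact replicate 2 (edgeR adjusted p = 0.004631), and 2.45 and not called without intact replicate 3 (edgeR adjusted p = 0.1212). Leaving out intact replicate 1 or any injured 12-month replicate also ended the call, with edgeR adjusted p between 0.07 and 0.1047. With the dominant share as a covariate the change was 5.51 and not called (edgeR adjusted p = 0.158). limma-voom did not call Kif13b (3.23, adjusted p = 0.06297) and called Dync1h1 in its place (1.38, adjusted p = 0.03447).

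Kif22 at 12 months had a log2 change of 2.27 ± 0.70 (edgeR adjusted p = 0.08911), and was called there by DESeq2 (2.27, adjusted p = 0.01474). Without intact 12-month replicate 2 edgeR called 5 of 51 tested transport genes at 12 months, beside 7.03% of all genes: Dync1h1 (1.69), Kif13b (3.53) and Kif11 (6.601, against intact libraries without a count) higher, and Dynlrb1 (-1.01) and Dctn3 (-0.95) lower. Without replicate 3 it called 1 of 52, Dynll2 (-2.35, edgeR adjusted p = 0.02313), which is none of these 5, beside 1.89% of all genes. These names were taken after their values were seen.

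Whether the injury change itself differed with age was tested jointly over the 3 ages. edgeR called 0 of the 50 and 0% of all 14212 genes, with 5 of the 50 and 8.17% of all genes at an unadjusted p below 0.05, and DESeq2 called 0 of the 50. The lowest unadjusted p was that of Kif13b (0.005926, edgeR adjusted p = 0.3834). For Kif22 the adjusted p was 0.6782, so its different log2 changes at 1, 8 and 12 months (1.67, 3.81 and 2.27) were not shown to differ.

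Within intact neurons the comparison of 12 with 8 months called 2 of the 50 genes, both lower at 12 months, beside 6.69% of all genes (2.77% higher and 3.92% lower). Kif13b read 12.7, 24.3 and 34.8 CPM at 8 months, against 1.71, 9.03 and 1.30 CPM at 12 months, and fell by 3.32 ± 0.68 on the log2 scale (edgeR adjusted p = 0.01222). Kif5a, the neuronal kinesin-1 heavy chain, read 476.7, 663.2 and 494.3 CPM at 8 months and 242.1, 343.2 and 176.0 CPM at 12 months. It fell by 1.11 ± 0.27 (edgeR adjusted p = 0.02299). The ages did not overlap for either gene.

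At 1 month the intact libraries read 6.82, 5.30 and 12.98 CPM for Kif13b and 330.4, 288.8 and 365.8 CPM for Kif5a. The 8-month libraries thus held the highest intact levels of both, except for overlap of Kif13b at 12.7 and 12.98 CPM. The fall of Kif13b from 8 to 12 months was 3.95 without intact 12-month replicate 2 (edgeR adjusted p = 0.002033) and 2.87 without replicate 3 (adjusted p = 0.04641). The fall of Kif5a was 1.38 (edgeR adjusted p = 0.002336) and 0.91 (adjusted p = 0.06228, not called). Without intact 12-month replicate 1 or intact 8-month replicate 2 Kif5a was not called either (edgeR adjusted p = 0.05167 and 0.07691). limma-voom called neither gene (Kif13b -3.69, adjusted p = 0.09811; Kif5a -1.28, adjusted p = 0.06233).

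**Figure D3:**
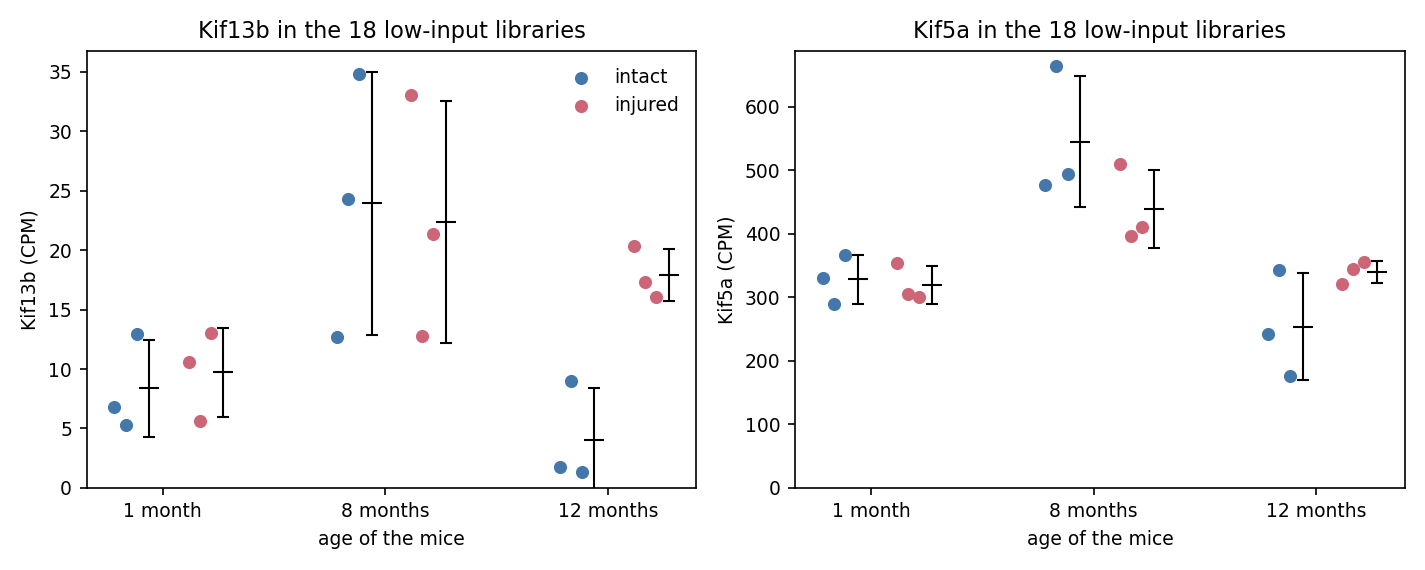
Levels (CPM) of Kif13b and Kif5a in each low-input library by age, with the mean ± SD (n = 3) in black; axes start at 0, which clips the lower end of 1 error bar. Kif13b is at 1.30 to 9.03 CPM in the intact 12-month libraries, which overlap those of 1 month (5.30 to 12.98 CPM), and intact 8-month libraries reach 663.2 CPM for Kif5a.

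The other age comparisons called none of the 50 with edgeR. Among all genes the calls were 0.922% for intact 8 against 1 month, 0.246% for intact 12 against 1 month, 0.225% for injured 8 against 1 month, 0.113% for injured 12 against 1 month and 0.0633% for injured 12 against 8 months. At an unadjusted p below 0.05 stood 10, 4, 3, 1 and 2 of the 50 in that order, beside 16.2%, 10.7%, 4.99%, 3.86% and 4.29% of all genes. DESeq2 called 4, 0, 0, 0 and 0. The 4 were Kif5a and Kif20b, higher in intact 8-month libraries, and Dynlrb1 and Kif6, lower there. The share of all genes that DESeq2 called is not given here, so these 4 cannot be set against it. In injured neurons Kif13b read 10.6, 5.64 and 12.99 CPM in 1-month libraries, 33.03, 12.8 and 21.4 CPM in 8-month libraries and 20.3, 17.3 and 16.03 CPM in 12-month libraries. Kif5a ran from 300.3 to 508.9 CPM over all 9 injured libraries.

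The 12-month intact libraries differed from one another by transcript length. For the 31 genes with a median of at least 10 CPM over the 18 libraries, the log2 deviation of each library from the gene's own median level was taken. The median deviation was then compared between the 15 genes with exons under 5635 bp and the 16 longer ones. In intact 12-month replicate 3 the shorter genes lay 0.26 above and the longer 0.85 below their own median levels. Replicate 1 of that group went the same way, with 0.26 and -0.45. Replicate 2 went the other way, with -0.98 for the shorter and 0.20 for the longer genes. The rank correlation of the deviation with exon length was -0.56, 0.34 and -0.65 in the intact 12-month replicates 1, 2 and 3. In the other libraries this correlation ran from -0.68 (intact 1-month replicate 2) to 0.50 (intact 8-month replicate 2). The intact 12-month libraries thus stood apart by the split into shorter and longer genes, and not by this correlation.

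In the other 15 libraries the longer minus shorter difference lay between -0.31 and 0.51. It was -0.71, 1.18 and -1.11 in the intact 12-month replicates 1, 2 and 3. Over all tested genes with a median of at least 10 CPM (3687 shorter and 2298 longer) it was -0.26, 0.77 and -0.56 in those 3 libraries. The transport genes thus moved the same way as other genes of their length there. Kif1a (9330 bp) read 285.0, 605.1 and 56.9 CPM in the 3 replicates, Dync1h1 (15658 bp) 298.6, 744.1 and 124.9 CPM, and Dynlrb1 (1009 bp) 209.0, 97.5 and 222.7 CPM. Kif13b (12470 bp) and Kif5a (6990 bp) are among the longer genes, and the part of transcript length in their low 12-month values was not tested.

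Without intact 12-month replicate 2, edgeR called 12 of 51 tested transport genes between 12 and 8 months in intact neurons, beside 14.3% of all genes. Without replicate 3 it called 1 of 52, Kif13b, beside 5% of all genes. Of the 12 called without replicate 2, the 7 lower ones were Kif1a, Kif26b, Kif3b, Dctn1, Kif5a, Dync1h1 and Kif13b. All 7 have exons of at least 5635 bp, the split, which is the length of Kif3b. This is not a separate result, as that fit rests on intact 12-month replicates 1 and 3. In both the longer genes lay below their own median levels. The share of longer genes among the 51 tested is not given here, and the part of length in these calls was not tested. The 5 higher ones were Dynlrb1, Dctn3, Kif1bp, Kif2a and Dynlt3, named after their values were seen, and of these Kif2a (6393 bp) is longer than the split.

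**Figure D4:**
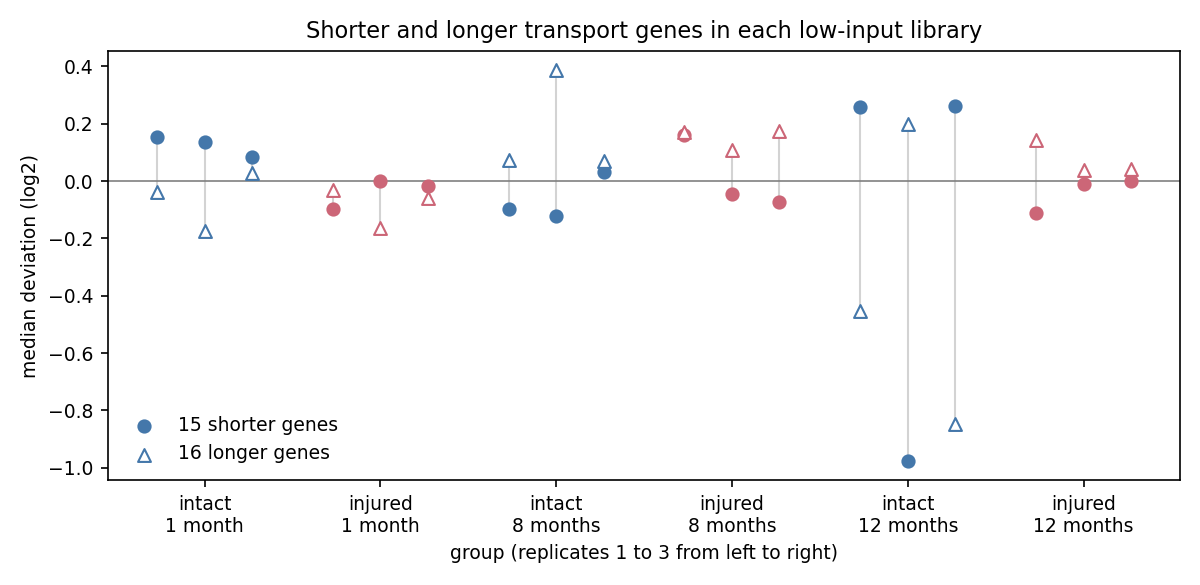
Median log2 deviation of the 15 shorter (filled circles) and 16 longer (open triangles) transport genes from their own median levels in each low-input library, blue for intact and red for injured. The pair of points is farthest apart in the 3 intact 12-month libraries, with the longer genes at -0.45, 0.20 and -0.85. In the others the longer minus shorter difference lies between -0.31 and 0.51, the latter in intact 8-month replicate 2.

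Single neurons show whether the same genes stood apart in cells. Cells with at least 100000 counts outside the dominant feature were kept, which left 12 intact and 17 injured cells at 1 month and 8 intact and 18 injured cells at 1 year. No animal is named for a cell, so each group is 1 sample, no test was made, and intervals are exact 95% Poisson intervals of pooled counts that cover counting error only. A kept cell had counts for 5 to 59 of the 66 genes. The neuronal markers summed to a median of 17610 to 21190 CPM per group, and those of satellite glia to 162.1 to 1506 CPM, higher at 1 year than at 1 month. Single cells ranged widely, with neuronal sums from 867.9 CPM (2 of 10 markers, in an injured 1-month cell) to 37070 CPM and satellite glia sums up to 54680 CPM, in an injured 1-year cell. The neuronal sum was below 10000 CPM in 1 intact and 1 injured cell at 1 month and in 1 intact and 4 injured cells at 1 year, and pooled values without these 7 cells were added after the sums were seen.

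The nerve injury markers did not separate the labelled conditions in every cell. Their median sums were 218.3 CPM in intact and 466.4 CPM in injured cells at 1 month and 287.4 and 406.9 CPM at 1 year. Of the 17 injured 1-month cells, 6 had sums of 10910 to 17510 CPM and the other 11 had 51.3 to 2353 CPM, within or near the range of intact cells (0 to 1574 CPM). At 1 year 1 of 18 injured cells had 8751 CPM and the other 17 had 81.8 to 1388 CPM, against 96.05 to 1278 CPM in intact cells. Most cells labelled injured thus had injury marker sums like those of intact cells, and the comparisons of cells follow the labels.

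At 1 month 6 of the 36 genes with a mean of at least 10 CPM were 2-fold or more apart, beside 15.2% of all features. Kif22 was the 1 higher in injured cells (beside 5.49% of all), and Dynll2, Kif13a, Kif13b, Kif21b and Kif26b were lower (beside 9.74%). At 1 year 2 of 38 were apart, both lower in injured cells, Kif21b and Kif9 (beside 4.78% lower, 5.47% higher and 10.2% in either direction). These names were taken after their values were seen. Without the 7 cells low in neuronal markers the same 6 genes were apart at 1 month, and at 1 year only Kif21b. The median log2 ratio of the transport genes was -0.13 at 1 month and -0.04 at 1 year, and that of all features -0.06 and -0.01.

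Kif22 pooled to 7.42 CPM (6.56 to 8.37) in intact and 17.5 CPM (16.4 to 18.7) in injured cells at 1 month, a ratio of 2.36. At 1 year it was 5.63 CPM (5.03 to 6.29) in intact and 5.11 CPM (4.66 to 5.59) in injured cells. The ratio above 1 at 1 month thus had no counterpart in the 1-year cells, and the difference between ages was not tested. Per cell, the median at 1 month was 4.71 CPM in intact and 4.28 CPM in injured cells, while the upper quartile was 7.99 and 28.9 CPM. The higher pooled value at 1 month came from a subset of the injured cells, the highest at 45.5 CPM, and the highest cell of all was an injured 1-year cell at 80.1 CPM. In the 6 injured 1-month cells with the highest injury marker sums Kif22 read 34, 40.3, 35.8, 28.9, 1.41 and 45.5 CPM, and the 1-year cell at 80.1 CPM was the 1 with 8751 CPM of those markers. In all other kept cells Kif22 was at most 23.2 CPM. With every cell thinned to 100000 counts, Kif22 was seen in 3 of 12 intact and 6 of 17 injured cells at 1 month and in 1 of 8 and 6 of 18 at 1 year (9 of 12, 11 of 17, 5 of 8 and 13 of 18 before thinning).

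Kif5b pooled higher in injured cells at both ages, at 476.4 against 616.7 CPM at 1 month and 714.0 against 1028 CPM at 1 year. In the low-input libraries its mean was lower in injured neurons, so the direction of the values differed between the kinds of sample. Its share of the length-scaled Kif5 level was 22.4% in intact and 33.7% in injured cells at 1 month, and 26.7% and 34.1% at 1 year. Kif5a held 46.97% and 36.8% at 1 month and 39.5% and 35.6% at 1 year.

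Dynll2 pooled lower in injured cells, at 160.7 against 72.3 CPM at 1 month and 194.7 against 116.0 CPM at 1 year. Its median cell read 109.9 and 60.5 CPM at 1 month and 196.7 and 85.3 CPM at 1 year. Dynll1 held 58.8% of the LC8 level in intact and 79.02% in injured cells at 1 month, and 43.2% and 62.99% at 1 year. In the low-input libraries the Dynll1 share ran from 14.03% to 73.2% in intact and 51.6% to 76.1% in injured libraries.

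Kif21b, Kif13b, Kif26b and Kif9 were uneven between cells. Kif21b pooled to 20.8 CPM in intact and 2.40 CPM in injured cells at 1 month and to 43.03 and 15.8 CPM at 1 year, but its median cell was at 0 in 3 of the 4 groups and at 0.34 CPM in intact 1-year cells. Kif13b pooled to 50.99 and 23.2 CPM at 1 month, with cell medians of 14.7 and 15.97 CPM, and to 49.5 and 49.2 CPM at 1 year. Kif26b had 118.3 and 38.5 CPM at 1 month with cell medians of 54.7 and 25.5 CPM. Kif9 had 21.9 CPM in intact 1-year cells, where the highest cell read 188.3 CPM and the median 0.77 CPM. Without the cells low in neuronal markers Kif9 had 1.06 CPM in intact and 3.96 CPM in injured 1-year cells, so that its order turned.

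**Figure D5:**
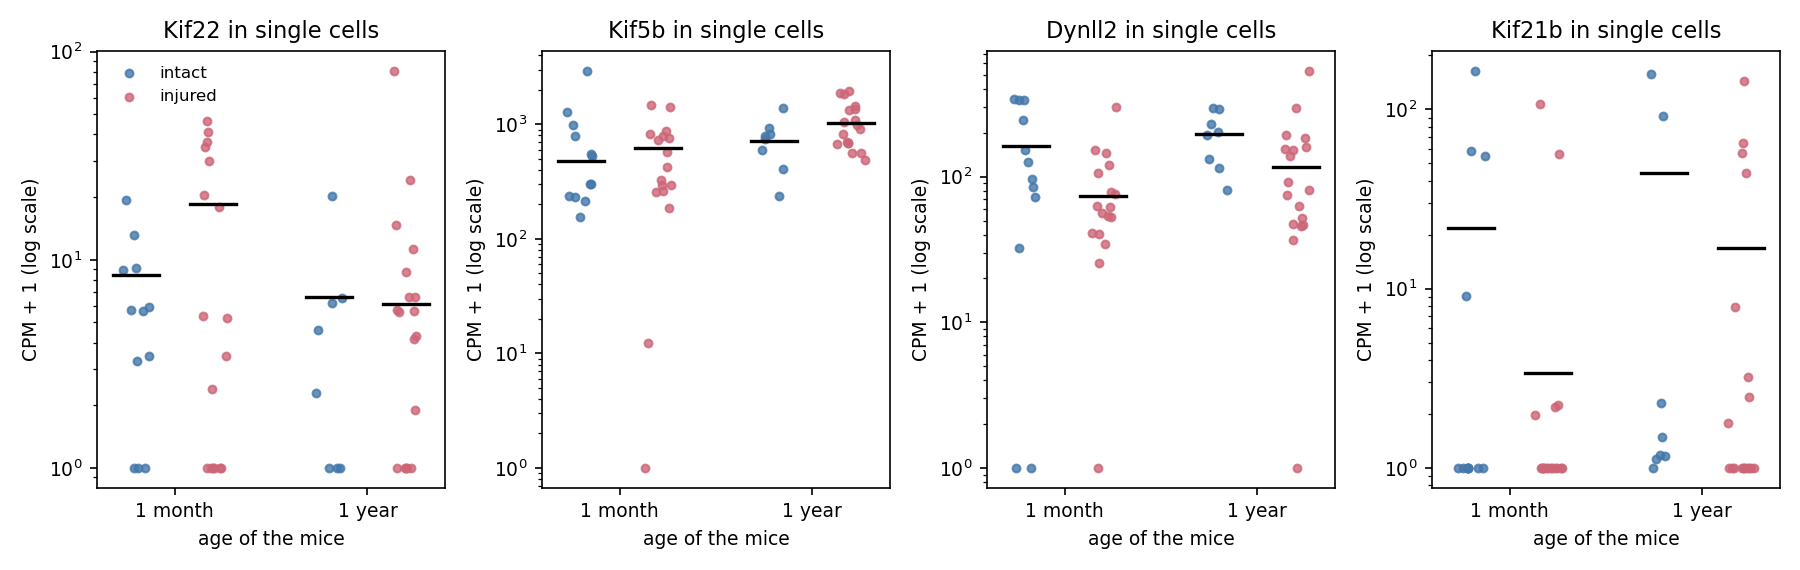
Level per kept cell (CPM + 1, log scale) of Kif22, Kif5b, Dynll2 and Kif21b in single neurons at 1 month and 1 year; dots are cells and the black line is the pooled level of the group. Pooled Kif22 is higher in injured cells at 1 month (17.5 against 7.42 CPM) and not at 1 year, Kif5b is higher and Dynll2 lower in injured cells at both ages, and Kif21b is at or near 0 in most cells.

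Among the remaining axonal motors the pooled levels of Dync1h1, Kif1a and Klc2 in cells were lower with injury at both ages, by less than 2-fold. Dync1h1 had 1484 CPM in intact and 844.8 CPM in injured cells at 1 month and 1739 and 1393 CPM at 1 year. Kif1a had 1131 and 664.3 CPM at 1 month and 1081 and 963.6 CPM at 1 year. In the low-input libraries the injured means of both were above the intact ones (739.8 against 579.6 CPM for Dync1h1 and 522.2 against 474.4 CPM for Kif1a), so that for these genes too the values lay in opposite directions, with neither called in the averaged low-input comparison. Klc1 had 1684 and 2069 CPM at 1 month and 2025 and 1925 CPM at 1 year, and Klc2 149.2 and 79.5 CPM, then 187.3 and 108.6 CPM. Kif20a and Kif20b, which edgeR did not call in the averaged low-input comparison with all libraries, stayed at or below 3.28 CPM in all 4 cell groups.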

How the data were processed

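RNA counts of 18 low-input libraries and 69 cells were used. The values are unnormalised fragment counts for each gene, which the authors made with featureCounts 1.5.2, unstranded, on GENCODE vM16, per the file headers; the submitters' processing notes name Trim Galore, STAR and mm10. The deposited summed exon length (bp) is not a measured value. Reads at several places were not counted. Names deposited more than once (45) came as 1 merged column, and 0 columns were left unused.

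The low-input counts, without 92 spike-ins, were filtered with filterByExpr, scaled with TMM and fitted with edgeR 4.0.16 (R 4.3.3, robust quasi-likelihood, 6 group means, 12 residual degrees of freedom, common biological coefficient of variation 0.543), which was tested on simulated data. The tests are two-sided, adjusted over 14212 genes by Benjamini-Hochberg and called below 0.05. DESeq2 1.42.0 and limma 3.58.1 were alternatives, with other scalings, no filter, a covariate, a replicate block and each library left out. Deviations from group means over 1275 genes were correlated between intact and injured libraries of the same replicate number. The values were 0.24, 0.30 and 0.47 at 1 month and between -0.50 and 0.09 at 8 and 12 months. Same-number libraries of different ages reached 0.53 (intact replicate 1, 1 and 8 months), so these correlations cannot show that the numbers mark pairs. Genes named in the text were those called in a comparison, the best-known axonal motors, the 5 of highest level and called adaptors; others, such as the tested mitotic kinesins, were added after their values were seen. The genes and lists were chosen with earlier results of these data known.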

Additional observations from a re-analysis of the deposited data

How the results depend on the processing

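Alternatives were compared by the number of tested transport genes called and by each named gene. Averaged injury called 1 gene (beside 6.18% of all genes), against 4 without the filter, 3 with DESeq2, 2 with limma-voom and 0 with the dominant share as covariate. Scaling to spike-ins (ERCC), under which the median gene had a log2 change of 2.90, called 49, all higher. At 8 months the 1 call went to 0 with limma-voom, the covariate and the replicate block. At 12 months the 1 call became 2 with RLE scaling, 50 with ERCC, 3 without the filter, 3 with DESeq2, and 0 with the covariate and the block. Intact 8 against 1 month went from 0 to 1 with ERCC, 2 without the filter and 4 with DESeq2, and intact 12 against 1 month from 0 to 49 with ERCC. Intact 12 against 8 months went from 2 to 11 with DESeq2, 0 with limma-voom, and 4 with the covariate or with the dominant feature removed, an alternative added after seeing the data, as was leaving out the 12-month libraries. limma-voom called 1, 2 and 5 genes in the injured age comparisons of 8 and 1, 12 and 1, and 12 and 8 months, against 0. The joint interaction went from 0 to 1 with ERCC and 3 without the filter. In cells the count at 1 month was 6, against 3 over all endogenous counts and 1 by the median cell, and at 1 year 2, against 1 over all endogenous counts and 1 without the cells low in neuronal markers, also added after seeing the data. Where these counts changed, the cause was not tested. The share of all genes called under each alternative is not given here. A changed count therefore cannot be read as a result about the transport genes.

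Leaving out 1 library gave 1 to 4 calls for averaged injury, 0 to 1 at 8 months, 0 to 5 at 12 months, 0 to 2 for intact 8 against 1 month, 1 to 12 for intact 12 against 8 months, and 0 to 0 in the other comparisons. The counts of 4, 5 and 12 arose without intact 12-month replicate 2, beside 9.92%, 7.03% and 14.3% of all genes. Calls against the direction of the reported estimate arose only under ERCC scaling, while the signs of some uncalled genes near 0 also varied under others. With ERCC, Kif5b had 2.16, Klc2 2.63, Kif3a 3.01, Kif16b 2.33, Kif21a 2.78, Kif2a 2.95, Kif1bp 2.63, Dync1i1 2.31, Dync1i2 2.61, Dynll2 2.48, Dynlrb1 2.46, Dynlt3 2.79, Dctn1 2.80 and Dctn3 2.48. Relative to the shift of all genes Kif5b lay at -0.74, Dync1i1 at -0.58, Kif16b at -0.57, and the other 11 between -0.43 and 0.12. Kif22 kept its averaged call in 26 of 27 alternatives, all but the covariate. These are not independent checks. They include leaving out each of the 18 libraries in turn, which uses nearly the same data. They also include ERCC scaling, under which 49 transport genes were called higher.

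With the replicate block Kif22 stayed called in the averaged comparison (2.60, edgeR adjusted p = 0.01165), while at 8 months it had 3.94 (adjusted p = 0.1033) and Kif13b at 12 months 2.86 (adjusted p = 0.1066). Whether the numbers mark pairs was not shown at any age. At 1 month 0 of the 50 were called with and without the block. At 12 months the simulated data gave back 2% of 2-fold and 51% of 4-fold changes, again only on genes of at least 10 CPM. The simulated libraries lacked the shared deviations of the intact 12-month replicates, so these rates may not hold for the measured libraries. An uncalled gene at a single age may thus have changed.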
